A study of Mus musculus with 16 samples.

Results

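The calcium pumps of the sarcoplasmic reticulum, their peptide regulators and the calcium-binding proteins of muscle were followed in quadriceps of mice with a muscle-specific Nampt knockout and of wild-type mice. The genes are the pumps Atp2a1 and Atp2a2, the regulators Sln and Pln, the calsequestrins Casq1 and Casq2, parvalbumin (Pvalb) and sarcalumenin (Srl). They were chosen by gene name, and all 8 were found among the 45706 genes of the deposited table. The KO group is 8 libraries from mice lacking Nampt in skeletal muscle only, and the WT group is 8 libraries from wild-type mice. Nampt encodes the enzyme that sets the pace of NAD salvage from nicotinamide, and the series title names NAD loss and muscle ageing as its subject. The labels give neither the promoter that drove the deletion nor the age, sex or strain of the mice. Nothing in them ties each library to its own animal, and the spread behind every p-value is therefore that among libraries, which may be technical.

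After each contraction, SERCA pumps return calcium from the cytosol to the lumen of the sarcoplasmic reticulum, and this lets the muscle relax. Atp2a1 encodes SERCA1, the pump of fast fibres, and Atp2a2 encodes SERCA2, the pump of slow fibres, the heart and many other cells. Sarcolipin and phospholamban are short membrane peptides that bind the pump and restrain it. Calsequestrin holds calcium in the lumen beside the release channel, parvalbumin binds calcium in the cytosol of fast fibres, and sarcalumenin is a lumenal calcium-binding glycoprotein that associates with the pump.

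The peptide regulators are encoded by very short reading frames, which are printed here because these 2 genes had the fewest reads of the 8. Myoregulin (Mrln), another SERCA-binding peptide of skeletal muscle, is shown beside them for size and was chosen after its values were seen. The coding sequences were read from GENCODE vM21 transcripts (GRCm38), 5′ to 3′, with start and stop codons in capitals.
Sln: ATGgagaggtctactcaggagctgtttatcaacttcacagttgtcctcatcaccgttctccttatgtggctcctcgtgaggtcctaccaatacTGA
Pln: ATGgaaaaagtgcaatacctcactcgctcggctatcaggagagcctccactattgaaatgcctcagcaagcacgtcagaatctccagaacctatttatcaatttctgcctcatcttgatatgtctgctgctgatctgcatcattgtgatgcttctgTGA
Mrln: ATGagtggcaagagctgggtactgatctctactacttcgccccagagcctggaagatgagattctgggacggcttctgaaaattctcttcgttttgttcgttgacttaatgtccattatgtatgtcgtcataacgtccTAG
The Sln frame holds 31 codons before the stop and lies at chr9:53853473-53853568, plus strand. That of Pln holds 52 codons and lies at chr10:53343864-53344022, and that of Mrln holds 46 codons at chr10:70219496-70219636, both also on the plus strand. The Sln and Pln frames are a small part of the exons of their genes, since the merged exons span 1318 bases in Sln and 2759 bases in Pln.

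Library totals ran from 16065357 to 51881239 estimated counts. Nampt, the targeted gene, averaged 73.4 ± 9.30 CPM over the KO libraries and 141.4 ± 12.0 CPM over the WT libraries (SD, n = 8 libraries per genotype; CPM is the count divided by the TMM-scaled library size in units of 1e6 counts). Every KO library lay below every WT library, with a log2 fold change of -0.95 (edgeR quasi-likelihood, adjusted p = 9.68e-07), so 51.9% of the WT level remained in the whole tissue. The libraries carried the labelled tissue's markers: 12 fast fibre contractile genes summed to between 132800 and 164000 CPM per library, and 10 slow fibre genes to between 204.7 and 830.3 CPM. Of 8 heart and atrial markers 4 passed the low-count filter, with KO and WT means of 9.15 and 6.51 CPM for Myl4, 3.80 and 2.89 for Myh6, 2.70 and 2.93 for Tnnt2, and 2.01 and 1.73 for Hcn4. All 8 markers summed to 7.81 to 38.4 CPM per library, with Tnni3 at most 0.235 CPM and Myl7, Nppa and Nppb below 0.1 CPM in every library. KO libraries 1, 3, 5 and 8 had the highest sums over 21 genes listed as RNA that lacks a poly(A) tail. Their sums were 462.2 to 697.7 CPM, against 192.6 to 419.0 CPM in the other libraries. The histone genes Hist1h1c (means of 135.6 CPM in KO and 132.9 in WT) and Hist1h2bc (40.6 and 44.2) made up a large part of the lower sums. Whether every listed RNA lacks a tail was not tested, and the list keeps this name below. None of the 8 genes depends on KO libraries 1, 3, 5 and 8 for its direction.

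Levels were compared between genes per kb of merged exon. Atp2a1 was the highest of the 8, at 8372 ± 461.6 CPM per kb for KO and 8638 ± 567.9 CPM per kb for WT (SD, 8 libraries per genotype). By CPM without regard to length it ranked 3 among the 13792 genes that passed the low-count filter. Its mean CPM amounts to 2.91% of the TMM-scaled library size in KO and 3.00% in WT. Pvalb followed with 5391 CPM per kb in WT, then Casq1 with 1149 and Srl with 323.2. The genes of slow fibres and heart were far lower in WT, Atp2a2 at 28.3 ± 9.60 and Casq2 at 8.46 ± 3.43 CPM per kb. Sln had 1.501 ± 0.504 and Pln 0.387 ± 0.10 CPM per kb in WT, the lowest 2 levels.

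The order of the 8 genes was the same in KO and WT by their means. Within WT the ranges of neighbours in this order were separate except for Atp2a2 and Casq2, where the lowest Atp2a2 library (13.0 CPM per kb) lay below the highest Casq2 library (16.4 CPM per kb). Within KO the exception was Sln and Pln, whose ranges overlapped, with Sln above Pln in 7 of 8 libraries. The choice of length matters most for Atp2a2. Atp2a1 was 305.4 times Atp2a2 per kb of merged exon in WT, and 225.3 times per kb of the longest coding transcript.

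**Figure D1:**
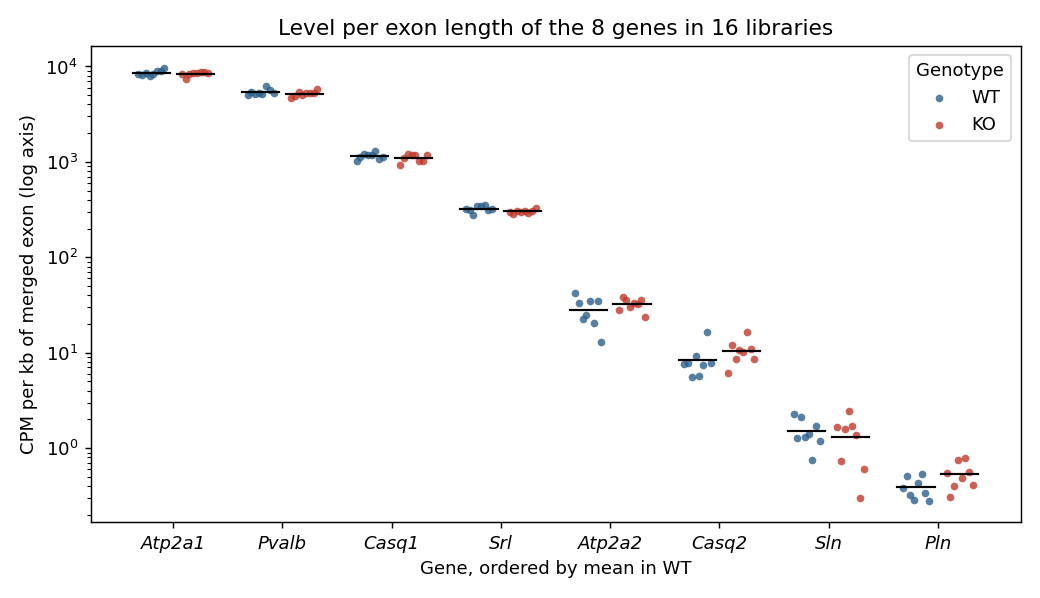
Level of each gene in every library, as CPM per kb of merged exon on a log axis, with WT in blue, KO in red and a bar at each group mean. The genes of fast fibres (Atp2a1, Pvalb, Casq1) lie at 927.3 CPM per kb or above, and Sln and Pln at 2.46 or below.

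None of the 8 genes differed between KO and WT beyond the threshold. Of the 8, 0 passed an adjusted p under 0.05 with edgeR's quasi-likelihood test, limma-voom or DESeq2, which gave no adjusted p for Sln and Pln. Among all 13792 tested genes, 6 passed with edgeR (0.0435%), and 5 with limma-voom (0.0363%). DESeq2 called 97 of the 5527 genes to which it gave an adjusted p (1.76%). At an unadjusted p under 0.05, 1 of the 8 was counted, Pln, against 9.57% of all tested genes. Log2 fold changes were above 0 for 3 of the 8 (Atp2a2, Pln and Casq2) and below 0 for 5, while 51.8% of all tested genes were above 0. The median of the 8 was -0.05, against 0.00 over all tested genes. A change of 1.5-fold or more, up or down, was outside the 95% interval of 5 of the 8, and of 86.2% of all genes in the test. The 3 with wider intervals were Sln, Pln and Casq2.

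Atp2a1, the fast pump, had a median of 29419.9 CPM in the KO libraries, from 25441 to 30675, while the WT libraries ran from 27886 to 33845 CPM around 29424. The groups overlapped, with KO library 2 alone below every WT library and 3 WT libraries above every KO library. KO stood at -0.05 on the log2 scale relative to WT (standard error 0.05), that is, at 96.9% of WT with an interval from 0.900-fold to 1.04-fold (edgeR adjusted p = 0.831). The estimate was -0.02 without KO library 2 and also without WT library 8. In GRCm38, the build of all positions given here, Atp2a1 (ENSMUSG00000030730) lies on chromosome 7 from 126445858 to 126463108 on the minus strand. It shares 763 exon bases with Rabep2 on the opposite strand, which had a mean of 31.3 CPM, and the strand setting of the counting is not given in the sources used here. Reads from the shared bases may therefore be split between the 2 genes.

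Atp2a2, the slow pump, ran from 145.2 to 233.7 CPM in the KO libraries, median 198.9, and in the WT libraries from 79.2 to 258.0 CPM, median 176.6. All KO libraries sat inside the WT range, with 3 WT libraries below them all and 1 above. The lowest level was in WT library 8 and the highest in WT library 1. The coefficient of variation was 14.6% in KO and 33.9% in WT, and this difference in spread was not tested. Its log2 fold change of 0.18 (standard error 0.18, edgeR adjusted p = 0.80) became 0.08 without WT library 8 and 0.29 without WT library 1. Atp2a2 (ENSMUSG00000029467) lies on chromosome 5 from 122453513 to 122502225 on the minus strand. Estimated counts per gene do not separate its splice forms or those of Atp2a1.

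Sln, which encodes sarcolipin, ranged over 0.394 to 3.24 CPM among KO libraries (median 1.97) and 0.997 to 2.97 CPM among WT libraries (median 1.78). The groups overlapped, with 3 KO libraries below and 1 above the WT range. The widest span of any of the 8 genes within a genotype was that of Sln in KO, 8.22-fold from library 7 to library 4. Its counts per library ran from 15 to 156, and at the mean count of 53.1 the counting error alone is 13.7%, against a coefficient of variation of 54.3% in KO and 33.6% in WT. KO differed from WT by -0.24 on the log2 scale (standard error 0.32, edgeR adjusted p = 0.867). The interval from 0.533-fold to 1.35-fold is the widest of the 8 on the log2 scale, and the spread among libraries exceeded the counting error. The value was -0.06 without KO library 7, -0.44 without KO library 4 and -0.53 with limma-voom. Sln (ENSMUSG00000042045) lies on chromosome 9 from 53850164 to 53854560 on the plus strand.

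Pln, which encodes phospholamban, ranged over 0.853 to 2.18 CPM among KO libraries (median 1.43) and 0.778 to 1.496 CPM among WT libraries (median 0.990). In KO 4 of 8 libraries lay above every WT library and 7 of 8 above the WT mean. Pln stood 0.49 higher in KO on the log2 scale (standard error 0.20), with an interval from 1.06-fold to 1.87-fold. Its unadjusted p was 0.0218 and its adjusted p 0.42 (edgeR), so Pln did not pass over all genes; 4.02% of all tested genes were higher in KO at an unadjusted p under 0.05. It rests on 14 to 66 counts per library, with a counting error of 16.9% at the mean count of 35.2. Over 26 alternative fits its log2 fold change ran from 0.39 to 0.68 and its adjusted p from 0.283 to 0.643. Pln (ENSMUSG00000038583) lies on chromosome 10 from 53337667 to 53345987 on the plus strand, and 141 of its exon bases overlap Cep85l on the other strand. Cep85l had a mean of 8.85 CPM and a log2 fold change of -0.00, and how far its reads enter the Pln values was not tested.

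**Figure D2:**
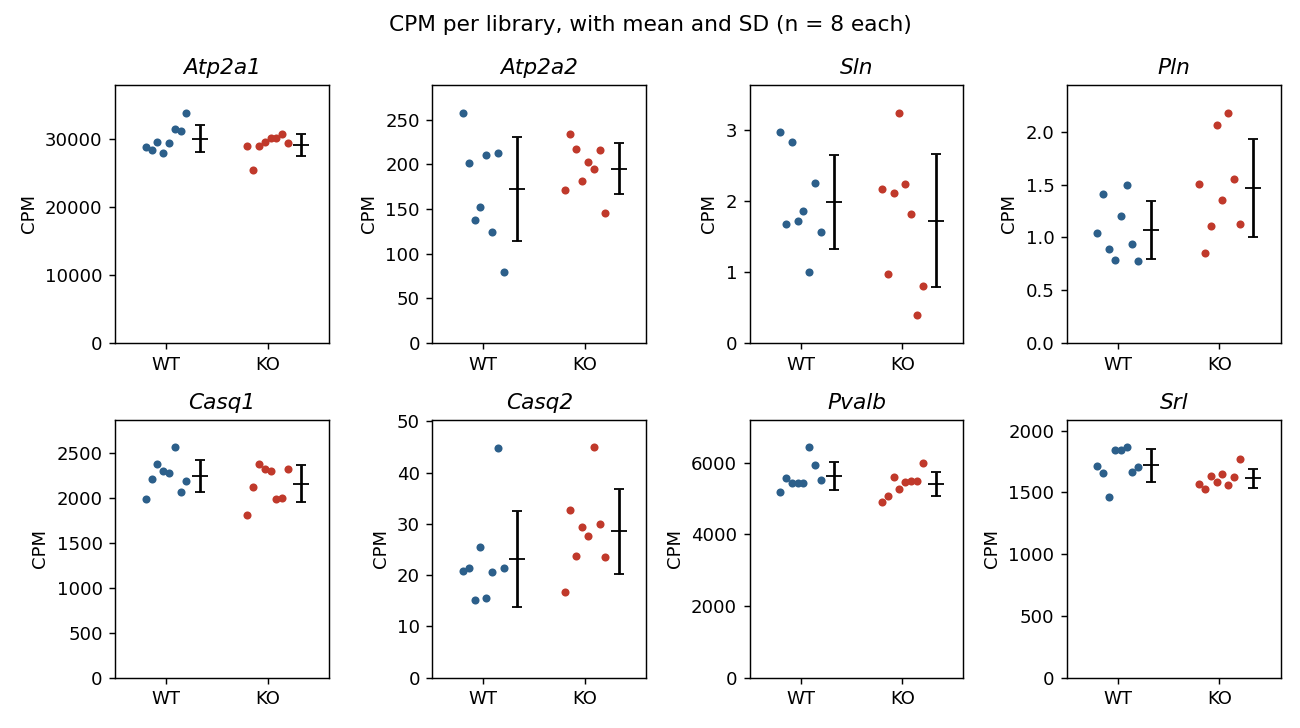
CPM of each gene in each library (points, WT in blue and KO in red), with the mean and SD of each group (n = 8) in black; every vertical axis starts at 0. The groups overlap for all 8 genes, and the 4 high KO libraries of Pln lie between 1.51 and 2.18 CPM.

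Casq1, the fast fibre calsequestrin, had KO values of 1809 to 2377 CPM (median 2207) and WT values of 1979.8 to 2559 CPM (median 2240.1). KO library 1 lay below every WT library and WT library 6 above every KO library, and the rest overlapped. The difference was -0.06 on the log2 scale (standard error 0.06, edgeR adjusted p = 0.82), against -0.02 without KO library 1 and -0.03 without WT library 6. Casq1 (ENSMUSG00000007122) lies on chromosome 1 from 172209894 to 172219868 on the minus strand. Its exons share 156 bases with the antisense gene Gm17224, which did not pass the low-count filter.

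Casq2, the calsequestrin of slow fibres and heart, had KO values of 16.7 to 44.9 CPM (median 28.5) and WT values of 15.2 to 44.8 CPM (median 21.1). In KO 7 of 8 libraries lay above the WT mean of 23.1 CPM, yet the highest WT library, number 7, was close to the highest KO library, number 6. The estimate of 0.30 on the log2 scale (standard error 0.21, edgeR adjusted p = 0.702) ranged with 1 library left out from 0.17 without KO library 6 to 0.51 without WT library 7. Its relation to the RNA that lacks a poly(A) tail did not pass after adjustment: over 16 libraries, with genotype means removed, Pearson's r was -0.52 (permutation p = 0.0337, adjusted p = 0.255 over 24 relations) and Spearman's rho -0.58 (permutation p = 0.0281, adjusted p = 0.168). Without KO libraries 1 and 5, the farthest on the x axis, r was -0.46, and within KO and WT it was -0.83 and -0.12. Leaving out KO libraries 1, 3, 5 and 8 gave Casq2 a log2 fold change of 0.56 (edgeR, adjusted p = 0.505). Casq2 (ENSMUSG00000027861) lies on chromosome 3 from 102086415 to 102146514 on the plus strand.

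Pvalb had KO values of 4902 to 5977 CPM (median 5468) and WT values of 5176 to 6423 CPM (median 5472). The groups overlapped, with 2 KO libraries below every WT library and 1 WT library above every KO library. On the log2 scale KO differed by -0.05 (standard error 0.05, edgeR adjusted p = 0.783), against -0.02 without WT library 6 and -0.03 without KO library 1. Pvalb (ENSMUSG00000005716) lies on chromosome 15 from 78191114 to 78206400 on the minus strand.

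Srl had KO values of 1529 to 1768 CPM (median 1603) and WT values of 1465 to 1865 CPM (median 1712). Only KO library 8 lay above the WT mean, while no KO library left the WT range. WT library 3 alone lay below every KO library, and 3 WT libraries lay above them all. Srl differed by -0.09 on the log2 scale with the smallest standard error of the 8, 0.05, and the interval ran from 0.873-fold to 1.01-fold (edgeR adjusted p = 0.573). Without WT library 3 the difference was -0.12 (edgeR adjusted p = 0.327). Srl (ENSMUSG00000022519) lies on chromosome 16 from 4480216 to 4541816 on the minus strand.

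Ratios within a library remove most of the effect of library scaling, apart from the pseudocount. Per kb, Atp2a2 amounted to 0.386% ± 0.0715 of Atp2a1 for KO and 0.332% ± 0.121 for WT (SD, 8 libraries per genotype), from 0.134% in WT library 8 to 0.525% in KO library 2. The log2 ratio of Atp2a2 to Atp2a1 was 0.30 higher in KO, with 7 of 8 KO libraries above the WT mean and 6 of 8 above the WT median (exact two-sided permutation p = 0.244, adjusted p = 0.489 over 4 ratios). It was 0.12 without WT library 8 and 0.11 as a difference of medians. Casq2 amounted to 0.955% ± 0.312 of Casq1 in KO and 0.749% ± 0.344 in WT, and the log2 ratio was 0.39 higher in KO (exact permutation p = 0.133, adjusted p = 0.489). Without WT library 7, whose ratio was the highest of WT, that difference was 0.55 (exact permutation, adjusted p = 0.046). The call therefore turned on this library, and it did not pass with any other library left out. Sln to Atp2a1 differed by -0.20 and Pln to Atp2a2 by 0.06 on the log2 scale (exact permutation, adjusted p = 0.675 and 0.799). The sign of the Pln to Atp2a2 difference turned with a pseudocount of 5 CPM (-0.15), and that of Sln to Atp2a1 with medians in place of means (0.07). The latter was -0.02 without KO library 7, -0.32 without KO library 4 and -0.34 with no pseudocount.

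**Figure D3:**
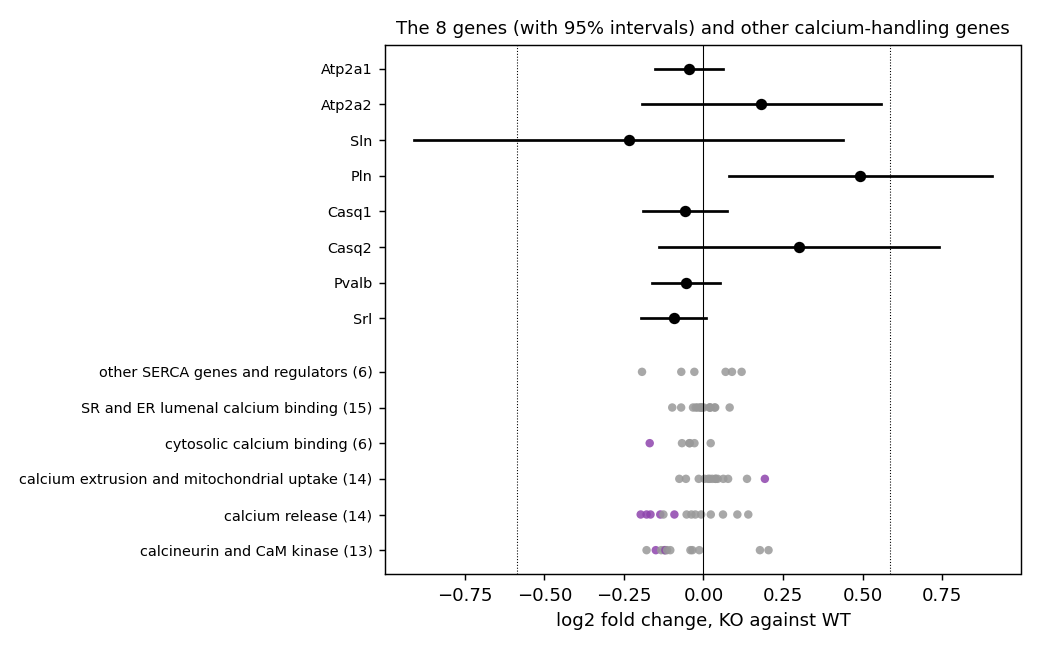
Log2 fold change of KO against WT for the 8 genes with 95% intervals (black), and for 68 other calcium-handling genes as points by list, purple where the unadjusted p is under 0.05. Dotted lines mark a 1.5-fold change, and the 68 points lie between -0.20 and 0.20.

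Genes that share the pathway were taken from 6 lists, with 68 of 73 matched genes tested. In these lists 0 genes passed with edgeR, limma-voom or DESeq2, beside 0.0435%, 0.0363% and 1.76% of all genes given an adjusted p. DESeq2 left 18 of these 68 genes without an adjusted p. Its lowest adjusted p among the others was 0.0503, just above the threshold of 0.05. The lowest was 0.2725 with edgeR and 0.2703 with limma-voom. At an unadjusted p under 0.05 there were 9 (13.2%; 9.57% over all genes in the test), 1 higher and 8 lower in KO (11.8% lower; 5.55% over all genes). The median log2 fold change was -0.02, and 28 lay above 0 (41.2%; 51.8% over all genes). All 68 intervals lay inside a 1.5-fold change, as did those of 86.2% of all genes in the test.

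Among other SERCA genes and regulators, 0 of 6 tested had an unadjusted p under 0.05. S100a1, a calcium-binding protein that interacts with the pump, had a KO mean of 53.0 and a WT mean of 54.1 CPM. Hax1, a phospholamban-binding protein, had a KO mean of 20.3 and a WT mean of 19.1 CPM. Mrln had a KO mean of 15.0 and a WT mean of 17.2 CPM per kb, above the means of Sln and Pln, with a log2 fold change of -0.19 (adjusted p = 0.623). Atp2a3, a SERCA pump of blood and endothelial cells also chosen after its values were seen, had a KO mean of 1.92 and a WT mean of 1.83 CPM per kb. In the sarcoplasmic reticulum lumen and membrane 0 of 15 had such a p, and Trdn and Hrc, which bind calsequestrin or calcium beside the release channel, had log2 fold changes of 0.00 and -0.01.

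Of 14 calcium release genes 5 had an unadjusted p under 0.05, and in all 5 KO was the lower group (5.55% of all genes in the test were lower at that p). They were Jph1, which holds the junction of T-tubule and reticulum together (log2 fold change -0.14, adjusted p = 0.272), the calcium channel subunits Cacng1 (-0.18, 0.333) and Cacna2d1 (-0.17, 0.431), the release channel partner Fkbp1a (-0.09, 0.413) and the inositol trisphosphate receptor Itpr1 (-0.20, 0.404). Of the calcineurin and CaM kinase genes 2 of 13 had such a p, both lower in KO (again beside 5.55% over all genes), the calcineurin subunits Ppp3cb at -0.15 (adjusted p = 0.296) and Ppp3r1 at -0.12 (adjusted p = 0.352). Calm3, a calmodulin gene, was at -0.17 (adjusted p = 0.406), and Slc8b1, the mitochondrial sodium-calcium exchanger, was at 0.19 (adjusted p = 0.351). Adjusted p values here are from edgeR's quasi-likelihood test.

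How the 8 genes varied among libraries was described apart from genotype, by removing each genotype's mean from log2(CPM + 0.5). The standard deviations were 0.09 for Atp2a1, Pvalb and Srl and 0.13 for Casq1, against 0.42 for Atp2a2, 0.44 for Casq2, 0.56 for Sln and 0.30 for Pln. Of all tested genes 95.6% varied less than Atp2a2 and 96.4% less than Casq2, while 15.0% varied less than Atp2a1. The counting error is 1.40% for Atp2a2 and 3.71% for Casq2 at their mean counts.

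Of the 28 pairs among the 8 genes, 0 were related at an adjusted p under 0.05 by Pearson's or Spearman's coefficient. The strongest was Casq1 with Pvalb, with r = 0.57 over 16 libraries (permutation p = 0.025, adjusted p = 0.428) and rho = 0.45 (permutation p = 0.0896, adjusted p = 0.635). The next was Atp2a1 with Atp2a2, with r = -0.56 (permutation p = 0.0306, adjusted p = 0.428) and rho = -0.39 (permutation p = 0.171, adjusted p = 0.683). Each fell to 0.25 in size without the 2 libraries farthest on the x axis, which were KO 1 and WT 6 for the former and KO 2 and WT 8 for the latter. At an unadjusted p under 0.05 there were these 2 pairs by Pearson's r and 1 by Spearman's rho, Atp2a1 with Pvalb (rho = 0.60, permutation p = 0.0178, adjusted p = 0.498; r = 0.44, permutation p = 0.10, adjusted p = 0.468, and 0.56 without KO 2 and WT 8).

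Atp2a2 instead followed the slow contractile genes. Against the mean of 10 slow fibre genes, which holds none of the 8, r was 0.90 over 16 libraries (permutation p = 7e-05, adjusted p = 0.00168 over 24 relations) and rho was 0.89 (permutation p = 0.00015, adjusted p = 0.0036). Without WT libraries 3 and 8, the farthest on the x axis, r was 0.86. Within WT r was 0.92 (exact permutation p = 0.00122, n = 8) and rho 0.90 (p = 0.00456), and within KO r was 0.79 (exact permutation p = 0.0173, n = 8) and rho 0.60 (p = 0.132). Leaving out 1 library at a time gave r between 0.84 and 0.93. This was the 1 relation of 24 that passed, the others being those of the 8 genes with slow genes, fast genes and RNA that lacks a poly(A) tail.

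Of the slow fibre genes themselves 10 of 10 lay above 0 (51.8% over all tested genes), with a median log2 fold change of 0.28. They gave 0 called genes, and their part in the values of Atp2a2 and Casq2 in KO was not tested. Summed, they reached 437.9 to 830.3 CPM among KO libraries and 204.7 to 823.0 CPM among WT libraries, with WT library 8 the lowest, as it was for Atp2a2. Mean log2(CPM + 0.5) of the 10 was 3.67 in WT library 8 and 4.02 in WT library 3. It was 4.596 or more in every other library. The 10 genes were measured in the same libraries, so 10 of 10 does not count separate results. How far their direction rests on WT libraries 3 and 8 was not tested. In whole tissue, fewer slow fibres and less slow-gene RNA per fibre cannot be told apart. Casq2 had r = 0.45 with the slow genes (permutation p = 0.11, adjusted p = 0.378) and rho = 0.44 (permutation p = 0.0865, adjusted p = 0.346), with 0.46 without WT libraries 3 and 8. Within KO r was 0.74 (exact permutation p = 0.0241, n = 8) and within WT 0.35 (exact permutation p = 0.421, n = 8), and the difference between genotypes was not tested. Sln and Pln, regulators of the pump, had r of 0.03 and 0.24 with the slow genes (permutation p = 0.901 and 0.338, adjusted p = 0.983 and 0.567; rho 0.10 and 0.33, permutation p = 0.716 and 0.207, adjusted p = 0.891 and 0.498). Without WT libraries 3 and 8 these r were 0.10 and 0.02. Against 12 fast fibre genes the largest r were those of Srl (0.65, permutation p = 0.0151, adjusted p = 0.181; rho 0.51, permutation p = 0.0541, adjusted p = 0.26), Pvalb (0.54, permutation p = 0.0425, adjusted p = 0.255; rho 0.57, permutation p = 0.027, adjusted p = 0.168) and Atp2a1 (0.49, permutation p = 0.0642, adjusted p = 0.277; rho 0.65, permutation p = 0.0117, adjusted p = 0.14). Without KO library 5 and WT library 3 these r were 0.46, 0.68 and 0.59.

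**Figure D4:**
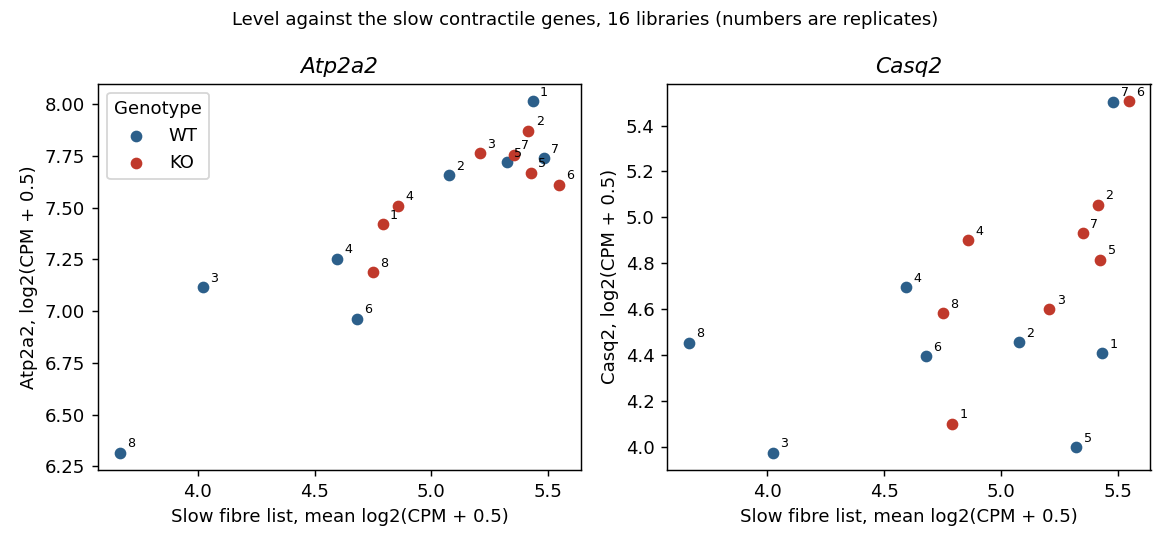
Atp2a2 (left) and Casq2 (right) against the mean of 10 slow fibre genes, both as log2(CPM + 0.5), with WT in blue, KO in red and the replicate number at each point. Atp2a2 lies along a line from WT library 8 at the lower left, and Casq2 scatters widely.

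The genes most like each of the 8 were ranked by Pearson's r over 16 libraries with genotype means removed, among 12238 tested genes with a mean of at least 1 CPM. These ranks are a description, since the best of so many is high by selection. The 3 most like Atp2a2 were Tnnt1 (r = 0.94), Tpm3 (0.92) and Myh7 (0.91), which encode slow troponin T, slow tropomyosin and slow myosin heavy chain. All 3 belong to the list of slow fibre genes used above, so this is not separate evidence for that relation. For Atp2a1 they were Cln6, Ubap2 and Sec16a, each with r = 0.90. For Casq1 they were Sema3a (0.87), Cacnb1 (0.82), a subunit of the T-tubule calcium channel, and Olfml2b (0.79). For Casq2 they were Magt1 (0.88), Lnp (0.86) and Ppp1r9a (0.85), and for Pvalb Mtus1 (0.85), Alg2 (0.80) and Wasf3 (0.79). Srl was most like Ctsd (0.80), Znf512b and Vkorc1l1 (0.78 each). Pln was most like Rsrc1 (0.85), Arrdc1 (0.80) and Fig4 (0.78), and Sln most like Kbtbd11 (0.82), Ptpru (0.76) and Edn1 (0.75).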

How the data were processed

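Polyadenylated RNA of quadriceps was sequenced as paired-end reads of 52 bp, per the labels' protocols. The authors deposited estimated counts per gene, and the submitters' processing notes name bcl2fastq 4.0.3, STAR, Salmon and build GRCm38. For the other versions, the annotation and the strand setting, the sources used here give nothing. Values were rounded to whole numbers (11.1% were not whole). GENCODE vM21 gave positions and exon lengths. Columns without a sample numbered 0.

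KO and WT were compared with edgeR 4.0.16 (R 4.3.3): quasi-likelihood F test, TMM, default filter, no covariate, Benjamini-Hochberg over 13792 genes, called under 0.05. The filter removed 0.0705% of counts. Alternatives used DESeq2 1.42.0, limma 3.58.1, other scalings, covariates and left-out libraries. The fit was tested on simulated data. Ratios used exact permutation over 12870 assignments with a pseudocount of 0.5 CPM. Relations used 100000 permutations of libraries within genotype, and those with gene lists were added to the planned tests. Named genes are the 8 genes, Nampt, list genes called or with an unadjusted p under 0.05 (else the 2 with the highest CPM, left out for cell-type lists, which are given as counts) and the 3 most like each gene. Replicate numbers are not said to pair libraries. Members and lists were chosen with earlier results of these data known. Library totals of 16065357 to 51881239 leave counting errors under 4% for 6 genes, and larger ones for Sln and Pln. Libraries within a genotype differed beyond sampling noise (chi-square per degree of freedom at least 8.09).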

Additional observations from a re-analysis of the deposited data

Results flagged for a closer look

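In each genotype the highest or lowest library was compared with the others for the 8 genes and 4 ratios, 24 groups in all, of which chance flags about 1 in 20. In 3 of them a library stood apart by the gap to the nearest library as a share of the whole range, where the critical value for 8 libraries is 0.526. The lowest KO library for Atp2a1 was KO 2, with a gap of 0.674 of the range on the log2 scale. Without it the log2 fold change of Atp2a1 was -0.02. The highest WT library for Casq2 was WT 7, with a gap of 0.528, and for the Casq2 to Casq1 ratio the same library had a gap of 0.557. No cause for these gaps was tested.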

How the results depend on the processing

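The number of the 8 genes called was 0 in each of 27 alternative fits, and each gene kept the sign of its log2 fold change in every fit that gave it an adjusted p. The number of all genes called was 6 with edgeR. It was 2 with RLE scaling, library totals, a library total covariate or a covariate for RNA without a poly(A) tail. It was also 2 without KO libraries 1, 3, 5 and 8. It was 3 without the low-count filter, 4 with an RNA integrity covariate, 5 with limma-voom, 7 with upper-quartile scaling and 97 with DESeq2. With 1 library left out it ran from 2 to 8. The replicate block gave 2 called genes and none of the 8. Same-numbered libraries correlated from -0.109 to 0.247, and 2 of 8 KO and 0 of 8 WT libraries were closest to their own number, so the numbers were not taken as pairs. The Pln to Atp2a2 difference was -0.15 with a pseudocount of 5 CPM and ran from -0.035 to 0.17 with 1 library left out. The Sln to Atp2a1 difference was 0.067 between medians. The Casq2 to Casq1 difference ran from 0.27 to 0.55 with 1 library left out, and passed only without WT library 7 (exact permutation, adjusted p = 0.046). The cause of these changes was not tested. At the mean count, counting error was 13.7% for Sln and 16.9% for Pln, below their spread among libraries, and no fit separates splice forms. Alternatives for the relations between genes and the transcript length were chosen after seeing the data.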

Other observations

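Markers of other cell types were measured beside the 8 genes, since Atp2a2 and Atp2a3 are also expressed outside muscle fibres. Of 7 endothelial markers 6 were above 0 on the log2 fold change scale (median 0.13), as were 51.8% of all tested genes. Of the 7, 3 had an unadjusted p under 0.05 (edgeR): Cdh5 at 0.18, Tie1 at 0.13 and Emcn at 0.19. Of 8 smooth muscle and pericyte markers 4 had such a p, all higher in KO: Notch3 at 0.20, Pdgfrb at 0.16, Cspg4 at 0.23 and Rgs5 at 0.12. Of these 8 markers 6 lay above 0 and 2 below, Tagln at -0.02 and Cnn1 at -0.08. The lists gave 0 called genes, and over all tested genes 4.02% were higher and 5.55% lower in KO at that p. Endothelial markers summed to 255.5 to 297.6 CPM among KO libraries and 228.5 to 263.7 CPM among WT libraries, and their part in the levels of Atp2a2 was not tested. Among 12 fast fibre genes 3 had an unadjusted p under 0.05, all lower in KO: Actn3 at -0.19, Mybpc2 at -0.18 and Tnni2 at -0.09. Of the 12, 9 lay below 0 and 3 above, namely Myh2 at 0.27, Myh1 at 0.13 and Myl1 at 0.01. Unadjusted p under 0.05 was found for 0 of 7 macrophage and leukocyte, 0 of 5 adipocyte, 0 of 6 fibro-adipogenic, 0 of 5 Schwann and nerve, 0 of 5 blood and 0 of 4 tested cardiac markers. Such a p was found for 4 of 10 tested genes listed as RNA that lacks a poly(A) tail, all higher in KO. They were Rmrp at 2.05, Rn7s1 at 1.78, Rn7s2 at 1.76 and Rn7sk at 1.65 on the log2 fold change scale. Of the 10, 7 lay above 0 and 3 below, and 0 were called.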
